A study of Mus musculus with 24 samples.

Results

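The genes described here are the replication-dependent histone genes of the mouse Hist1, Hist2, Hist3 and Hist4 clusters. They were taken from the normalised count table by their symbols, which start with Hist1h, Hist2h, Hist3h or Hist4h. The rule gave 67 of the 26267 genes in the table. Of these, 65 carried such a symbol in the table, and Hist1h2al and Hist1h2aj were named from their Ensembl identifiers through the GRCm38 annotation. No measured value was used to choose them. By symbol, the family held 6 genes for the linker histone H1, 18 for H2A, 19 for H2B, 11 for H3 and 13 for H4. These counts include members annotated as pseudogenes, namely Hist1h2al and Hist3h2bb-ps (processed) and Hist1h2aj (unprocessed). Of these, Hist3h2bb-ps alone was tested, and it is counted among the H2B genes below.

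Replication-dependent histone genes supply the histones that package newly made DNA, and their transcription and mRNA stability are tied to S phase of the cell cycle. Their mRNAs usually have no introns and end in a conserved stem-loop instead of a poly(A) tail. The stem-loop is bound by SLBP, and cleavage just after it uses the U7 small nuclear ribonucleoprotein; a polyadenylated form of many of these mRNAs is also known, particularly in differentiating cells. H1 binds linker DNA between nucleosomes, H2A and H2B pair with each other, and H3 and H4 form the centre of the nucleosome core.

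The 24 libraries were made from polyadenylated RNA of sorted mouse bone marrow LSK cells, a stem and progenitor population that lacks mature lineage markers and carries Sca-1 and Kit. The genotypes were WT, FancgKO (loss of Fancg, a member of the Fanconi anemia core complex), Mdm4Tg (an Mdm4 transgene; Mdm4 protein restrains p53) and FancgKO_Mdm4Tg. Animals of each genotype received PBS or Poly(IC), the synthetic double-stranded RNA poly(I:C), an inducer of interferon. PBS groups held 4 WT, 4 FancgKO, 3 FancgKO_Mdm4Tg and 3 Mdm4Tg libraries, and poly(I:C) groups held 3 WT, 3 FancgKO, 2 FancgKO_Mdm4Tg and 2 Mdm4Tg libraries. Strain, age, dose, time after injection and the promoter of the transgene are not given in the labels. Each title starts with a number (2, 4, 6, 7 or 8), used here as the replicate number, and ends in "d" (numbers 6 and 7) or "d_2" (numbers 2, 4 and 8), an ending (suffix in the plots) whose meaning the labels do not give. The labels do not say that libraries of a group came from separate animals, so p-values measure the spread between these libraries only.

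The stem-loop was searched for in the annotated transcripts of all 67 genes, because the libraries were made from poly(A) RNA and this structure stands at the end of the tail-less form of the mRNA. It was found in 43 genes and not in 24. Among the 24 were genes with short annotated transcripts, such as Hist1h4k (312 bases), Hist1h2bl (381) and Hist1h2ak (393). A stem-loop beyond the annotated end would be missed, so a gene without a match is not shown to lack it. In 22 of the 43 the annotated exon ran on for more than 100 bases beyond the stem-loop, and in 21 it ended within 100 bases of it. The members whose values are given most fully below are shown here, with the stem-loop in capitals between 5 flanking bases on each side (DNA letters, sense strand, GRCm38, GENCODE transcripts):
Hist1h1c: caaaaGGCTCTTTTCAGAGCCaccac
Hist1h2ac: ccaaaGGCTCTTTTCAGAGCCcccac
Hist1h2bg: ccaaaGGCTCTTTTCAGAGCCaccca
Hist1h2bk: ccaaaGGCTCTTTTAAGAGCCactaa
Hist1h4f: tcaaaGGCCCTTTTCAGGGCCaccca
Hist1h4j: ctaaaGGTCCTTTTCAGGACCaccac
Hist1h4n: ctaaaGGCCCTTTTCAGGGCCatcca

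The form shared by Hist1h1c, Hist1h2ac and Hist1h2bg was the most frequent, in 23 of the 43 genes. The form of Hist1h4f and Hist1h4n was found in 7 genes, all of them H4 genes. The form of Hist1h2bk occurred in 6 genes (Hist1h1t, Hist1h2bb, Hist1h2bk, Hist1h3c, Hist1h3e and Hist1h3f). Hist1h4j shared its form with Hist1h4b alone. Hist1h4i and Hist2h4 shared a form of their own, and Hist1h4a, Hist1h3g and Hist2h2ac each had a form found in no other member.

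Promoter sequences were available for 59 of the 67 members from RefSeq (GRCm38.p6, 250 bases before to 50 after the start). Each was searched on both strands for CCAAT, for TATAAA, for the octamer ATTTGCAT that is known from H2B promoters, and for AACACA, known from H1 promoters. CCAAT was present in all H1, H2A, H2B and H3 promoters matched and in 3 of 12 H4 promoters, which made 84.7% of members against 37.4% of 32817 promoters. The octamer was found in 7 of 16 H2A and 7 of 16 H2B promoters and in no H1, H3 or H4 promoter, or 23.7% of members against 1.74% of all promoters. AACACA was found in 5 of 6 H1 promoters, 83.3% against 17.4% of all promoters, and in 4 of 12 H4 promoters. It was also in 2 of 16 H2A, 2 of 16 H2B and 1 of 9 H3 promoters, and its share over all members was 23.7%. TATAAA was found in 57.6% of members and 13.6% of all promoters. These are matches of letters and not mapped binding sites. A promoter of each kind follows, with every match on either strand in capitals, for an H1, an H2B and an H4 gene whose levels differed in pattern below (Hist1h1c at chr13:23738557-23738856, plus strand, Hist1h2bg at chr13:23571150-23571449, plus strand, and Hist1h4j at chr13:21734784-21735083, plus strand):
Hist1h1c: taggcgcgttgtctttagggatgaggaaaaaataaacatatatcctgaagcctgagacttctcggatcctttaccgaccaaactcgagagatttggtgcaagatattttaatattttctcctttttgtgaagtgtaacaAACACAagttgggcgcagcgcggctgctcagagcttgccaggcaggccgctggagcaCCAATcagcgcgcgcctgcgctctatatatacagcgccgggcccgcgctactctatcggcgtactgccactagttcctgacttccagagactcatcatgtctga
Hist1h2bg: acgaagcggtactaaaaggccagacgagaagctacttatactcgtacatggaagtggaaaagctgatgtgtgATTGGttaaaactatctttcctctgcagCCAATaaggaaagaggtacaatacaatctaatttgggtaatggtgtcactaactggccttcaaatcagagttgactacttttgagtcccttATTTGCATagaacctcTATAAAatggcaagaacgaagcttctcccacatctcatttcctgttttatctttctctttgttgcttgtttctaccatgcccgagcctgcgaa
Hist1h4j: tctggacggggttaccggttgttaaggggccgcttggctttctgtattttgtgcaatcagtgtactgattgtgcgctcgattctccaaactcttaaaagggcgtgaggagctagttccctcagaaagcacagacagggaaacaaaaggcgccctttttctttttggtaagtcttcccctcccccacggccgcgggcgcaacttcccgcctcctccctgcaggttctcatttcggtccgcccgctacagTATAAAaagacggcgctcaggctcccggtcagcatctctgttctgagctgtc

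The Hist1 cluster held 55 members, 54 of them between positions 21715763 and 23934851 of chromosome 13 in GRCm38, a span of 2220 kb. Hist1h2al lay apart, at 51202727 to 51203065 of the same chromosome. The Hist2 cluster held 8 members on chromosome 3 (96219865 to 96270132), Hist3 held 3 on chromosome 11 (58948920 to 58956830), and Hist4h4 was the single Hist4 member, on chromosome 6 (136801553 to 136804415). Of the summed mean level of the family, 92.0% came from Hist1, 5.05% from Hist2, 1.59% from Hist3 and 1.37% from Hist4.

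These genes are close copies of each other, which limits how far single members can be told apart. The median member had 54.2% of its 50-base runs unique within the family (range 2.7 to 100%). Fewer than 25% were unique in 16 members, and all were unique in 6. The class medians were 98.9% for H1, 37.4% for H2A, 59.9% for H2B, 45.9% for H3 and 60.5% for H4. How reads matching several copies were counted is not given in the sources used here, so the split of counts between near-identical members is uncertain. Overlap with another annotated gene was found for 23 members, 5 of them on the same strand, and strand use in counting is not given either.

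Of the 67 members, 58 had 10 or more normalised counts in 2 or more libraries and were tested: 5 H1, 13 H2A, 16 H2B, 11 H3 and 13 H4 genes. The 9 others (Hist1h1t, Hist1h2aa, Hist1h2aj, Hist1h2al, Hist1h2ao, Hist1h2ba, Hist1h2bq, Hist1h2br and Hist2h2aa2) had mean levels of at most 3.32, and the lowest mean among the tested genes was 6.59, for Hist3h2ba. Hist1h1t, Hist1h2ba and Hist1h2aa are known as testis histones.

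Per kb of annotated exon, the highest mean level over the 24 libraries was that of Hist1h2bg, at 972 normalised counts per kb, followed by the H1 genes Hist1h1b at 935 and Hist1h1a at 708. Hist1h4f and Hist1h4k both stood at 696 per kb. The highest H3 gene was Hist1h3c, at 593 per kb, and the highest H2A gene was Hist1h2ab, at 534 per kb. The leading member of each class lay above the replacement histone genes H3f3b (432 per kb), H2afy (438), H2afx (264) and H2afz (176). Of these, H3f3b, H2afy and H2afz are made as ordinary polyadenylated mRNAs outside S phase as well. Class medians per kb were 349 for H1, 148 for H2A, 195 for H2B, 206 for H3 and 252 for H4. On the scale of normalised counts per gene, the 12 highest members held 47.3% of the summed mean level, led by Hist1h1b with a mean of 694, Hist1h2bg with 601 and Hist1h1c with 544. On that scale H2afy (mean 2982) and H3f3b (1285) lay above every member. Values per kb, and so the class medians, depend on annotated exon length, which ran from 312 bases for Hist1h4k to 7425 for Hist1h1d.

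**Figure D1:**
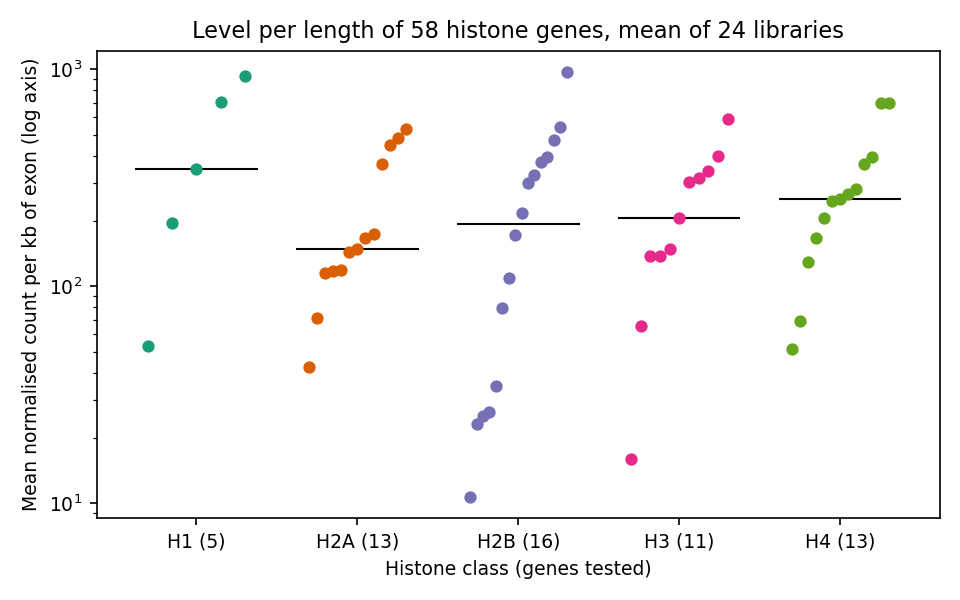
Mean level over 24 libraries of each of the 58 tested histone genes, in normalised counts per kb of exon on a log axis, by histone class, with 1 point per gene and a line at the class median. Hist1h2bg (972) and Hist1h1b (935) are the highest points, and the class medians run from 148 for H2A to 349 for H1.

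The libraries ranged from 807686 to 8229715 reads (median 2583130), of which 1970 to 31773 fell on the histone genes, and the number of reads limits the precision of low members. Mdm4 separated the transgenic libraries from the rest, at 5020 to 7100 normalised counts against 751 to 1290. Fancg stood at 26.1 to 71.4 in libraries labelled as lacking it and at 41.3 to 78.4 in the others; these ranges overlapped, and since the labels do not say which part of the gene is deleted, a count over the whole gene does not check the label. Kit (1483 to 2414) and Cd34 (1153 to 2457) were high in every library, Ly6a, which encodes Sca-1, was at 11.7 to 45.9, the mature marker Itgam was at 11.9 to 39.9, and the mature markers Ly6g (at most 1.14), Cd8a (at most 2.65) and Cd4 (at most 9.82) were at or near 0. Xist exceeded 100 in 6 libraries, all with the title ending d. They were libraries 6 and 7 of FancgKO given PBS, of WT given poly(I:C) and of FancgKO given poly(I:C). In WT libraries 6 and 7 given PBS, Xist was at 24.8 and 3.34. Among d libraries, Xist therefore cannot be told apart from genotype in FancgKO against WT with PBS, or from poly(I:C) in WT.

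The summed level of the family differed more with the title ending than with genotype or treatment. This comparison was taken up after the values by library had been seen. Among WT libraries given PBS, the 67 genes summed to 6218 in library 2, 16101 in library 6, 14141 in library 7 and 6936 in library 8. FancgKO libraries given PBS had sums of 4576, 8903, 14639 and 17177 in numbers 2, 4, 6 and 7. Numbers 6 and 7, the libraries whose titles end in d, were the high ones in both groups.

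FancgKO_Mdm4Tg libraries given PBS had sums of 5224 in number 2, 12943 in number 7 and 8241 in number 8. Mdm4Tg libraries given PBS had sums of 4574, 11022 and 4886 in the same numbers. The same order held with poly(I:C), in a narrower range.

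With poly(I:C), WT libraries 6, 7 and 8 had sums of 16501, 12815 and 9704. FancgKO libraries 6, 7 and 8 had sums of 14654, 13446 and 9873. FancgKO_Mdm4Tg libraries 7 and 8 reached 11910 and 10689, and Mdm4Tg libraries 7 and 8 reached 13817 and 9784. In all 8 groups every d library lay above every d_2 library, and over the 24 libraries together the d and d_2 sums did not overlap.

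**Figure D2:**
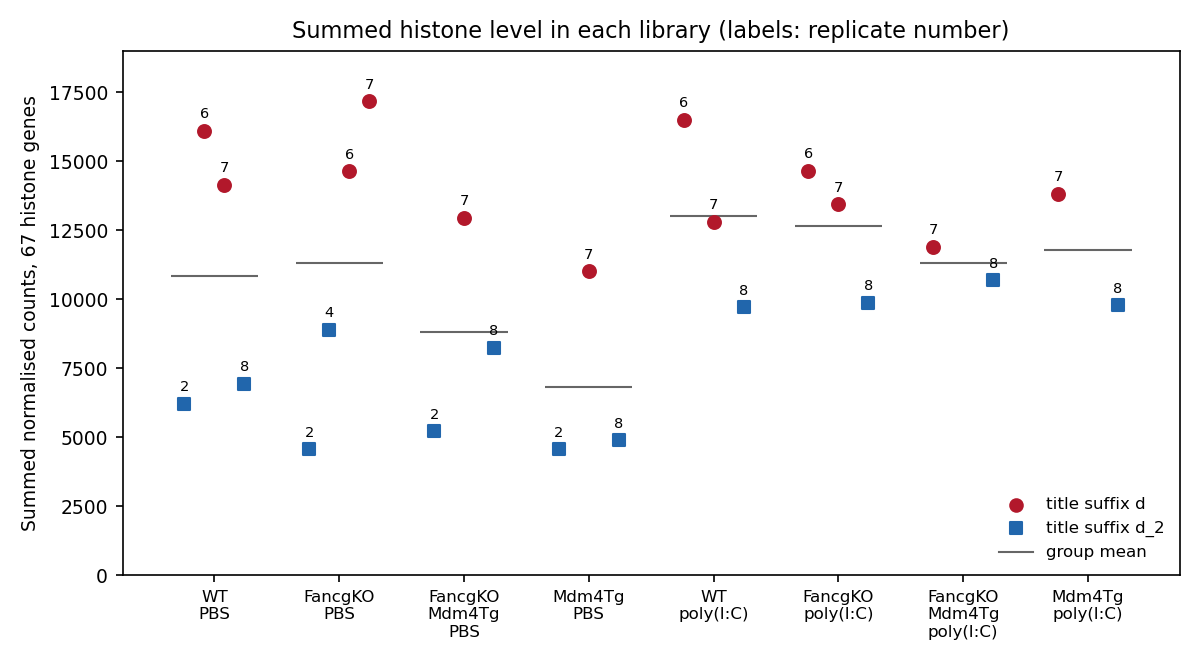
Summed normalised count of the 67 histone genes in each of the 24 libraries (vertical axis), by genotype and treatment (horizontal axis), with points marked by title ending and replicate number and a line at each group mean. Libraries ending in d lie between 11022 and 17177 and those ending in d_2 between 4574 and 10689.

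With PBS, the mean sum was 14340 ± 2202 (SD, n = 6) in d libraries and 6195 ± 1689 (SD, n = 8) in d_2 libraries, a ratio of 2.31. With poly(I:C) it was 13860 ± 1592 (SD, n = 6) and 10010 ± 456 (SD, n = 4), a ratio of 1.38. As a share of all counts in a library, the family made up a median of 0.569% (0.447 to 0.651%) in d libraries and 0.232% (0.186 to 0.346%) in d_2 libraries given PBS. The corresponding shares with poly(I:C) were 0.540% (0.483 to 0.619%) and 0.388% (0.379 to 0.413%).

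In a fit of group means plus the title ending, 49 of the 58 tested histone genes were higher in d libraries and none was lower. Over all 12628 genes tested, 45.3% were called, 21.7% as higher and 23.6% as lower. A gene was called when limma's adjusted p was at most 0.05. Each number carries only 1 ending, and the fits of the ending had no term for the number. Libraries of the same number were treated as independent, although they deviated together (median correlation 0.343). The SEs and p-values of the ending therefore do not measure the spread between numbers. The median difference, d minus d_2, was 0.94 on the log2(normalised count + 1) scale for the members and -0.02 for all genes. Every d library lay above every d_2 library for 21 members (36.2%) against 2.27% of all genes, and the opposite held for no member and 1.92% of all genes. Among PBS libraries alone this held for 33 members (5.22% of all genes), and in each of the 8 groups taken separately also for 33 members (6.36% of all genes). In a fit that allowed the difference to vary with treatment, 53 members were higher in d libraries given PBS, where 37.2% of all genes were called, with a median of 1.18.

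All 5 tested H1 genes rose in d libraries. Hist1h1c, which encodes the somatic linker histone H1.2, had 646 to 1075 normalised counts (median 850.2) in the 6 d libraries given PBS and 615 to 938 (median 749.9) in the 6 given poly(I:C). In d_2 libraries it had 133 to 442 (median 237) in the 8 given PBS, and 296.9, 334, 330.2 and 303 in the WT, FancgKO, FancgKO_Mdm4Tg and Mdm4Tg libraries given poly(I:C). The d and d_2 ranges did not overlap, and the difference was 1.54 ± 0.15 (log2, SE; adjusted p = 7.44e-08).

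Of the H2A genes, 12 of 13 rose, with a class median of 1.03. Hist1h2ai had the highest difference in the family, 1.89 ± 0.20 (SE; adjusted p = 1.36e-07), at a low level: 51.1 to 95.6 in d and 5.3 to 26.7 in d_2 libraries given PBS. Hist1h2ac, a more abundant H2A gene, had 457 to 652 in d and 84.6 to 216 in d_2 libraries given PBS, and its difference was 1.59 ± 0.15 (SE; adjusted p = 2.77e-08). Neither gene's ranges overlapped. Of the H2B genes, 15 of 16 rose, with a class median of 1.02; the exception was Hist2h2be, at 0.07 ± 0.11 (SE). Hist1h2bg, the highest member per kb, had 629 to 925 in the 12 d libraries and 246 to 577 in the 12 d_2 libraries.

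Of the 11 H3 genes, 10 rose, and the class median was 0.93. Hist1h3e had 267 to 509.6 in d and 73.6 to 201 in d_2 libraries given PBS, a difference of 1.56 ± 0.14 (SE; adjusted p = 1.36e-08) over both treatments. The H4 genes stood apart in count, with 7 of 13 higher and a class median of 0.50. Hist4h4 rose by 1.14 ± 0.13 (SE; adjusted p = 3.74e-07), whereas Hist1h4b (-0.28 ± 0.14, SE; adjusted p = 0.0956), Hist1h4k (-0.20) and Hist1h4j (-0.06) had negative values that did not pass the test. No test compared the classes.

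**Figure D3:**
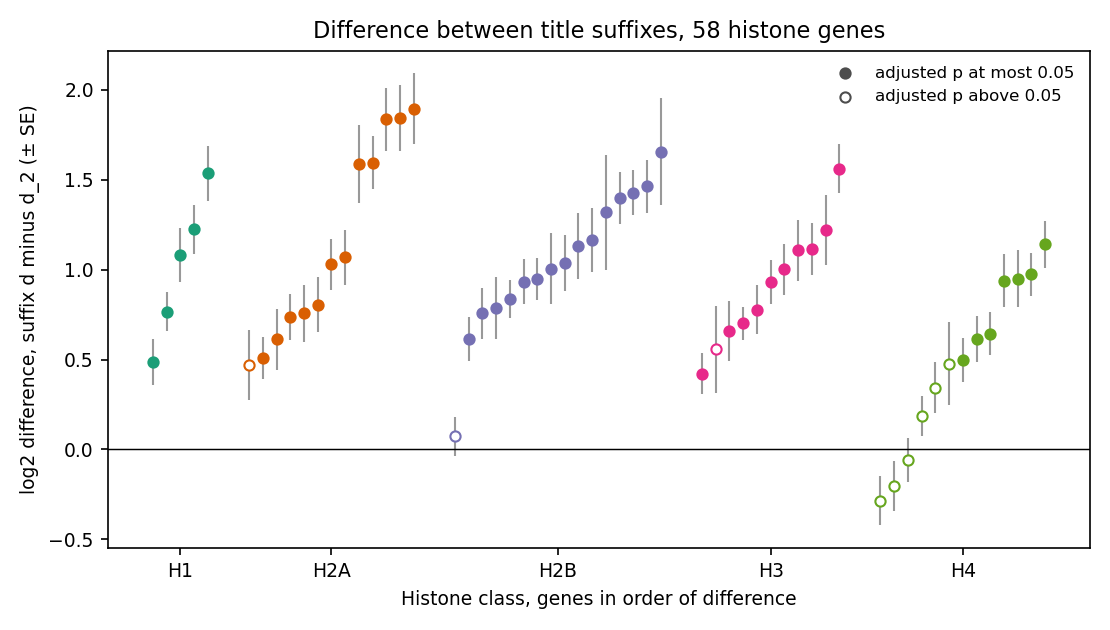
Difference between libraries with the title endings d and d_2 (log2 of normalised count + 1, d minus d_2) for each of the 58 tested histone genes, by class, with bars of 1 SE and filled points for an adjusted p of at most 0.05. Of the 58 genes, 49 pass the test with a positive value, and the 3 genes below 0 are the H4 genes Hist1h4b, Hist1h4k and Hist1h4j.

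Members were also sorted by the end of their annotated transcripts. Of 21 tested genes whose exon ran on beyond the stem-loop, 18 were higher in d libraries (median 0.95). Of 19 whose exon ended near the stem-loop, 16 were higher (median 0.76). Of 18 with no stem-loop found in the annotated transcript, which may end before it, 15 were higher (median 1.09).

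Other lists of genes are given beside the histone genes, and their part in the histone difference was not tested. Of all genes tested, 21.7% were higher and 23.6% lower in d libraries. Of 17 tested genes on a list of RNAs without a poly(A) tail, 10 were higher in d libraries and none lower (median 0.69). Rn7sk, a small nuclear RNA without a tail, was among them, at 0.69 ± 0.09 (SE). So were the gene models Gm26917 at 1.13 ± 0.14 and Gm42418 at 1.04 ± 0.12 (SE), whose mean levels were 194800 and 32530 normalised counts. Whether the gene models on this list lack a tail, and what their reads come from, was not tested. CT010467.1 of the same list, with a mean of 34870, stood at -0.50 ± 0.34 (SE) and was not called by limma (adjusted p = 0.244). Of 11 replacement histone genes, 7 were higher and none lower (median 0.39), among them H3f3b at 0.79 ± 0.07 (SE) and H2afz at 0.39 ± 0.08 (SE). Of 43 S phase genes other than histones, 12 were higher and 6 lower (median 0.01), a share called close to that of all genes. Among them, Pold1, a DNA polymerase delta subunit gene, was higher at 0.85 ± 0.09 (SE), and Mcm5, of the replicative helicase, at 0.50 ± 0.07 (SE). Rrm2, a ribonucleotide reductase subunit gene, was lower at -0.33 ± 0.10 (SE); it stood at -0.10 ± 0.11 (SE; adjusted p = 0.504) with PBS and at -0.66 ± 0.14 (SE) with poly(I:C). Of 17 genes for histone mRNA processing, 4 were higher and 7 lower, and Slbp, which encodes the stem-loop binding protein, was lower, at -0.22 ± 0.05 (SE; adjusted p = 0.00149). Of 19 histone chaperone genes, 5 were higher and 8 lower (median -0.02), with Chaf1a, of the chromatin assembly factor CAF-1, higher at 0.50 ± 0.09 (SE) and the H3-H4 chaperone gene Asf1a lower at -0.42 ± 0.08 (SE).

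Markers of cell types differed as well. All 4 megakaryocyte markers were higher in d libraries, with a summed level of 411 to 745 against 107 to 281 in d_2 libraries. No marker of these lists that was in the table was at 0 in all 24 libraries. Of 8 myeloid markers, 5 were higher (summed 3783 to 23190 in d, 1462 to 14030 in d_2), and of 5 tested erythroid markers 3 were higher. All 4 tested lymphoid markers were lower in d libraries (summed 56.1 to 562 against 280 to 1504), led by Rag1 at -3.67 ± 0.23 (SE). Of 9 stem and LSK markers, 1 was higher and 4 were lower. In such sorted samples, fewer cells of a type and less RNA per cell cannot be told apart. Title ending, replicate number and whatever else differed between those libraries cannot be told apart either, since numbers 6 and 7 always carry d and numbers 2, 4 and 8 always carry d_2. The number of histone genes called stayed between 49 and 53 without any 1 library and without any 1 number.

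Poly(I:C) was then compared with PBS, averaged over the 4 genotypes. In the fit of group means alone, 16 of 58 histone genes were higher with poly(I:C) and none was lower; 23.6% of all genes were called and 11.9% were called higher. The median difference was 0.53 for the members and 0.01 for all genes. With the title ending as a further term, 31 members were higher, where 34.8% of all genes were called and 18.4% were higher, and the members' median was 0.40. The count, given here without a share of all genes, moved when single libraries were left out. It was 3 without FancgKO_Mdm4Tg poly(I:C) library 8, 9 without Mdm4Tg PBS library 2 or 8, FancgKO poly(I:C) library 6 or Mdm4Tg poly(I:C) library 7, 10 without WT poly(I:C) library 6 or Mdm4Tg poly(I:C) library 8, and 25 without Mdm4Tg PBS library 7.

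The smallest p-values in this comparison were those of the H4 genes Hist1h4n, Hist1h4j and the H1 gene Hist1h1b. Hist1h4n had 36.5 to 111 normalised counts over the 14 PBS libraries, and its 10 poly(I:C) libraries ran from 97.7 to 158, and it rose by 0.89 ± 0.16 (SE; adjusted p = 0.00105). Hist1h4j ran from 59.0 to 163 in PBS libraries, its poly(I:C) libraries ran from 103.5 to 220.2, and it rose by 0.66 ± 0.13 (SE; adjusted p = 0.00158). Hist1h1b, which encodes the linker histone H1.5, rose by 0.61 ± 0.17 (SE; adjusted p = 0.0141). The ranges of both H4 genes overlapped between the treatments. Hist1h4b (0.54 ± 0.15), Hist2h2ab (0.76 ± 0.22) and Hist1h3b (0.51 ± 0.15) passed the test in the full set but not without FancgKO_Mdm4Tg poly(I:C) library 8, where their adjusted p-values were 0.0767, 0.053 and 0.0661; Hist1h4b also missed it without Mdm4Tg poly(I:C) library 8 (0.0662).

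Split by title ending, the poly(I:C) difference was found in d_2 libraries. In 1 fit of all 24 libraries that let the ending's difference vary with treatment, 49 of 58 histone genes were higher with poly(I:C) there and none lower. In the same comparison 38.7% of all genes were called and 20.5% were higher, and the members' median was 0.76. Counts from d_2 libraries alone, given with the processing below, come from a separate fit. In d libraries 0 of 58 were called by limma and 0 by edgeR, with 3 at an unadjusted p under 0.05 in each; 1.15% of all genes were called there, 0.364% as higher, and the members' median was 0.03. Every poly(I:C) library lay above every PBS library for 22 members (37.9%) in d_2, against 13.6% of all genes, and for no member in d, against 0.436%. The summed level with poly(I:C) was 1.62 times that with PBS in d_2 and 0.967 times in d libraries. All 4 d_2 libraries given poly(I:C) were number 8, and they were also the deepest, at 5491225 to 8229715 reads, whereas the d_2 libraries given PBS were numbers 2, 4 and 8, at 949156 to 4801746 reads. Within number 8 the 3 PBS libraries had 1406126 to 4801746 reads, all below the 4 poly(I:C) libraries, so treatment and depth cannot be told apart there either.

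In d_2 libraries all 13 H4 genes rose with poly(I:C), as did 4 of 5 H1, 10 of 13 H2A, 13 of 16 H2B and 9 of 11 H3 genes. Hist1h4j had 59.0 to 131 (median 94.5) in 8 PBS libraries, and 169, 213, 188 and 220.2 in the WT, FancgKO, FancgKO_Mdm4Tg and Mdm4Tg libraries given poly(I:C), a rise of 1.07 ± 0.14 (SE; adjusted p = 1.68e-05). Hist1h4k had 94.2 to 236 (median 167) with PBS, and 328, 339, 329 and 379 with poly(I:C) in the same order, a rise of 1.02 ± 0.14 (SE; adjusted p = 3.21e-05). Neither gene's PBS and poly(I:C) ranges overlapped. Hist1h4f rose by 0.98 ± 0.12 (SE; adjusted p = 1.49e-05) and Hist1h1b by 0.94 ± 0.15 (SE; adjusted p = 7.6e-05). The highest value was that of Hist1h4n, at 1.09 ± 0.20 (SE; adjusted p = 0.000246).

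Among members not called in d_2 libraries were genes with a large difference between the title endings. Hist1h1c differed by 0.36 ± 0.21 (SE; adjusted p = 0.179), Hist1h2ac by 0.16 ± 0.19 (SE; adjusted p = 0.527) and Hist3h2a by -0.14 ± 0.32 (SE; adjusted p = 0.753). With poly(I:C), 28 members were still higher in d than in d_2 libraries and 3 were lower, where 28.6% of all genes were called. The 3 lower ones were all H4 genes: Hist1h4b at -0.83 ± 0.16, Hist1h4k at -0.79 ± 0.15 and Hist1h4j at -0.52 ± 0.14 (log2, SE).

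The difference between the poly(I:C) responses was itself tested. It passed for 13 of 12628 genes (0.103%), of which 3 were histone genes, each with a smaller response in d libraries. Hist1h4k differed by -0.99 ± 0.20 (SE; adjusted p = 0.0454), Hist1h2bk by -0.89 ± 0.17 (SE; adjusted p = 0.0444) and Hist1h4f by -0.87 ± 0.17 (SE; adjusted p = 0.0444). Hist1h2bk, an H2B gene, had 106 to 219.8 in d_2 libraries given PBS and 312, 263, 318 and 255 in those given poly(I:C), and in d libraries it had 238 to 408 and 272 to 369. Hist1h4f had 116 to 218 and then 269, 317, 314 and 328 in d_2 libraries, and 222 to 418 and 279 to 386 in d libraries. Both rose in d_2 libraries to the range of the d libraries. These 3 calls rested on few libraries: leaving out 1 library at a time gave no called member in 16 of 24 cases and 10 to 22 in 6. The 16 libraries were WT PBS 2, 6 and 8, FancgKO PBS 2, 6 and 7, Mdm4Tg PBS 2 and 7, and all poly(I:C) libraries numbered 7 or 8. The 6 were FancgKO PBS 4 (12 called), FancgKO_Mdm4Tg PBS 2 (11), 7 (19) and 8 (10), WT poly(I:C) 6 (18) and FancgKO poly(I:C) 6 (22). Shares of all genes are not given for these cases, so the counts are a description only.

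**Figure D4:**
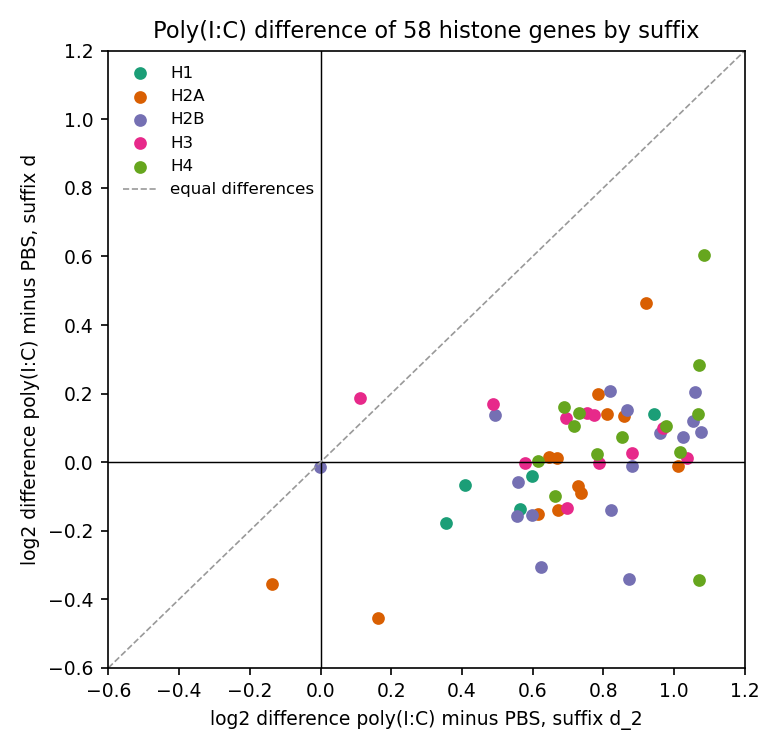
Poly(I:C) minus PBS difference (log2 of normalised count + 1) of each of the 58 tested histone genes in libraries ending in d_2 (horizontal axis) and in d (vertical axis), with points coloured by class. The points spread along the horizontal axis with a median of 0.76 and lie around 0 on the vertical axis, with a median of 0.03.

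Libraries sharing genotype and number were set side by side as a further description. In number 8, the summed histone level with poly(I:C) was 1.40 times that with PBS in WT, 1.30 times in FancgKO_Mdm4Tg and 2.00 times in Mdm4Tg, and 53, 48 and 57 of the 58 members were higher. In number 7 the ratios were 0.906 in WT, 0.783 in FancgKO, 0.92 in FancgKO_Mdm4Tg and 1.25 in Mdm4Tg, with 15, 5, 18 and 52 members higher. In number 6 they were 1.02 in WT and 1.00 in FancgKO, with 36 and 34 members higher. The ratio was above 1.2 in every number 8 pair and, among the pairs of numbers 6 and 7, in Mdm4Tg 7 alone.

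**Figure D5:**
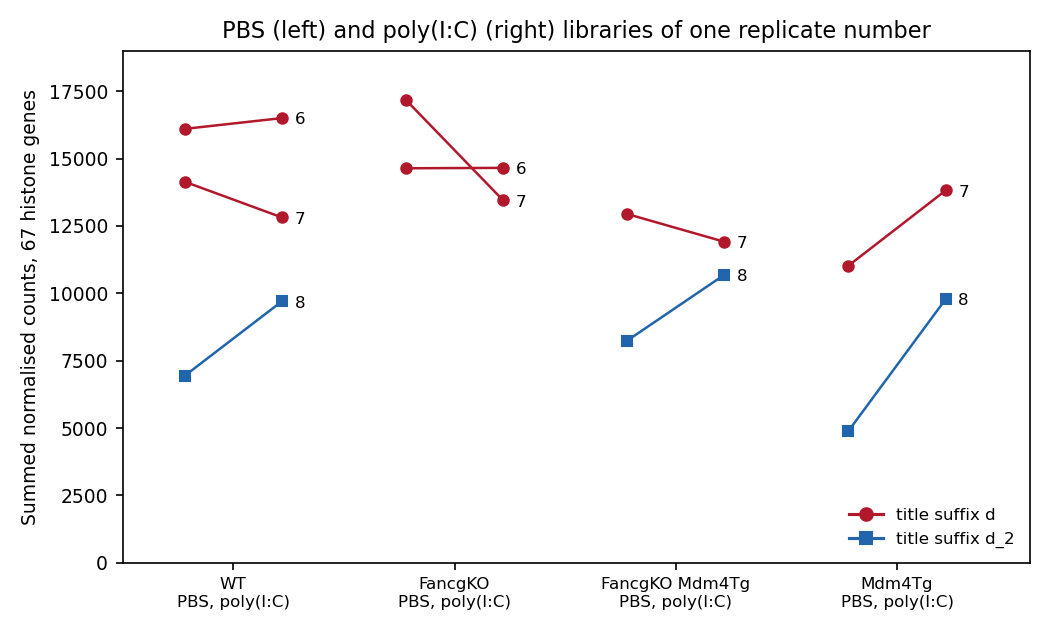
Summed normalised count of the 67 histone genes with PBS and with poly(I:C) in libraries of the same genotype and replicate number, joined by lines. All 3 lines of number 8 rise, and the other 6 run between ratios of 0.783 and 1.25.

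The same lists were read for poly(I:C) in d_2 libraries, where 20.5% of all genes were higher and 38.7% were called, and their part in the histone difference was not tested. Of 43 S phase genes, 26 were higher and none lower (median 0.33), among them Rrm2 at 1.02; in d libraries 1 was higher (median 0.15). All 8 myeloid markers were higher in d_2 libraries (median 3.19), as were all 5 tested erythroid markers (median 2.23) and all 3 mast cell markers (median 2.33). Of 9 stem and LSK markers 7 were lower (median -1.11), and of 4 tested lymphoid markers 3 were lower (median -1.33). Of the RNAs without a poly(A) tail, 7 of 17 were higher and 1 lower, and of the replacement histone genes 5 of 11 were higher and none lower. Among genes for histone mRNA processing, 2 of 17 were higher and 1 lower, and 8 of 19 histone chaperone genes were higher and 1 lower. The share called in either direction was near that of all genes in these last lists, and below it for the processing genes. The share called higher lay above the 20.5% of all genes for the tail-less RNAs, replacement histones and chaperones. It lay below 20.5% for the processing genes, and no list was tested as a set. In d libraries no replacement histone, chaperone, processing or tail-less RNA gene was called.

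Within single genotypes, no histone gene was called by limma for poly(I:C) against PBS. The share of all genes called was 0.0158% in WT and 0 in FancgKO, FancgKO_Mdm4Tg and Mdm4Tg. The members' medians were 0.35 in WT, 0.34 in FancgKO, 0.49 in FancgKO_Mdm4Tg and 0.96 in Mdm4Tg, with 1, 1, 2 and 19 members at an unadjusted p under 0.05. edgeR called 0, 0, 0 and 1 members and DESeq2 called 0, 0, 0 and 2. Their shares of all genes called are not given here, so these counts are a description only. WT libraries share numbers 6, 7 and 8 between the treatments, and with the number as a block Hist1h4n was called in WT, at 0.80 ± 0.22 (SE; adjusted p = 0.0322), where 6.88% of all genes were called. In Mdm4Tg, Hist1h4j had 59.0, 76.6 and 76.7 in PBS libraries 2, 7 and 8 and 169 and 220.2 in poly(I:C) libraries 7 and 8. Its difference was 1.45 ± 0.28 (SE), with an adjusted p of 0.0925 in limma, 0.0407 with the title ending as a term (where 0.0792% of all genes were called), 0.0333 in edgeR and 0.000809 in DESeq2. The response in Mdm4Tg minus that in WT had a positive value for all 58 members (median 0.52), and none passed that test in limma, edgeR or DESeq2 (2 at an unadjusted p under 0.05 in each).

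The comparison of Mdm4Tg with WT given PBS asks whether the transgene alone shifts these genes. All 58 members had lower mean values in Mdm4Tg, with a median of -0.67 and a range of -1.18 to -0.36, but none was called by limma, edgeR or DESeq2; 0.00792% of all genes were called. At an unadjusted p under 0.05 there were 9 members in limma, 19 in edgeR and 22 in DESeq2. Counts at an unadjusted p and counts of members with positive or lower values are given without the share of all genes. This holds for the other comparisons too, and these counts are a description only. Hist1h4j had 105, 133, 124 and 131 in WT libraries 2, 6, 7 and 8 against 59.0, 76.6 and 76.7 in Mdm4Tg, with no overlap, and a difference of -0.79 ± 0.23 (SE; adjusted p = 0.999). Hist1h4a (-0.67 ± 0.22) and Hist1h4f (-0.87 ± 0.34) followed it in the order of p. WT given PBS held 2 d libraries of 4 and Mdm4Tg 1 of 3, and the members' median was -0.55 with the title ending as a term. Within numbers 2, 7 and 8 the summed level in Mdm4Tg was 0.736, 0.779 and 0.704 times that in WT. With poly(I:C) the ratios were 1.08 in number 7 and 1.01 in number 8, the median was -0.16, and no member was called or had an unadjusted p under 0.05.

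For FancgKO against WT the members were split evenly. With PBS, 29 of 58 had positive values, the median was 0.00017, and none was called or had an unadjusted p under 0.05 in limma, edgeR or DESeq2. The summed level in FancgKO was 0.736 times that of WT in number 2, 0.909 times in number 6 and 1.22 times in number 7. With poly(I:C), 30 of 58 were positive, the median was 0.01, the ratios were 0.888, 1.05 and 1.02 in numbers 6, 7 and 8, and none was called. The smallest p-values with PBS were those of Hist2h2ab (0.59 ± 0.37), Hist1h3h (0.54 ± 0.49) and Hist3h2bb-ps (-0.80 ± 0.78), and each difference was under 2 times its SE.

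The double mutant FancgKO_Mdm4Tg was compared with each of its parts. Against Mdm4Tg with PBS, 56 of 58 members had positive values, with a median of 0.40, and the summed level was 1.14, 1.17 and 1.69 times as high in numbers 2, 7 and 8. Against WT with PBS the median was -0.31, with 3 of 58 positive and ratios of 0.84, 0.915 and 1.19 in the same numbers. Against FancgKO with PBS the median was -0.27, with 6 of 58 positive and ratios of 1.14 in number 2 and 0.754 in number 7. No member was called by limma, edgeR or DESeq2 in these comparisons; limma called 0, 0.00792% and 0.00792% of all genes in them, and 2, 0 and 1 members had an unadjusted p under 0.05 in limma. These comparisons share control libraries with each other and with those above. Hist2h2ab was the member with the smallest p against FancgKO, at -1.14 ± 0.40 (SE; adjusted p = 0.931). The transgene's difference on FancgKO minus that on WT had a median of 0.43, with 51 of 58 positive, and no member was called (1 at an unadjusted p under 0.05 in limma, 2 in edgeR and 2 in DESeq2).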

How the data were processed

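Total counts and histone levels were taken from the 24 deposited columns of normalised counts (a signal scaled by the authors, per the file header). Libraries were prepared from poly(A) RNA with the CATS RNA-seq kit, per the labels, and STAR and the mm10 build are named in the submitters' processing notes; versions, counting and strand settings are not given in the sources used here. All values came out as whole reads after rescaling (100% at a relative tolerance of 1e-06), so a count test could be run as an alternative.

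The main test was limma 3.58.1 with a mean-variance trend on log2(normalised count + 1), which understates differences of low genes, with 8 group means, 16 residual degrees of freedom, and 12628 genes at 10 or more in at least 2 libraries. P-values were adjusted over all genes (Benjamini-Hochberg) and called at 0.05. edgeR 4.0.16 and DESeq2 1.42.0 were alternatives on the recovered counts, with R 4.3.3. For poly(I:C) averaged over genotypes, edgeR called 3622 genes on the recovered counts and limma called 2974 on the normalised counts. The fitting code was tested on simulated data. Other alternatives were no filter, pseudocount 5, TMM, a replicate block, the title ending or Xist as a term, and leaving out each library.

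Same-numbered libraries deviated together (61 pairs, median correlation of deviations 0.343, range 0.0528 to 0.647), but other numbers with the same title ending did so too (63 pairs, median 0.243), and those with the other ending had a median of -0.255. The number was taken as pairing in the 6 comparisons with 3 pairs, all of them above 0.1. Members and lists were chosen with earlier results of these data known. Members named with values were the 12 highest, the 2 highest of each class and called ones, and others are named for a class extreme or a small p. Stem-loops were found by pattern in GENCODE vM21 transcripts, and promoters came from RefSeq.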

Additional observations from a re-analysis of the deposited data

Results flagged for a closer look

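In 70 sets of 4 libraries (35 items, the named members and sums, in each group of 4), 1 held a library far from the others, where chance gives about 1 in 20. It was the H2B gene Hist2h2be in WT library 8 given PBS, at 76.3 normalised counts against 61.9, 62.8 and 62.9, and its gap was 0.926 of the group's range. Hist2h2be was also among the members with the smallest difference between the title endings.

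The poly(I:C) responses of 3 members differed between the title endings by a test of the difference itself. The response in libraries ending in d minus that in libraries ending in d_2 was -0.89 for Hist1h2bk, -0.87 for Hist1h4f and -0.99 for Hist1h4k (log2). In d_2 libraries these responses were 0.88 ± 0.12, 0.98 ± 0.12 and 1.02 ± 0.14 (SE), and in d libraries they were -0.01 ± 0.12, 0.11 ± 0.12 and 0.03 ± 0.14. All 4 d_2 libraries given poly(I:C) carried number 8, so the part of that number in the difference cannot be told apart from the title ending.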

How the results depend on the processing

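Of 1054 recomputed counts and medians, 1002 stayed within 1.5 times or 1 SD (0.63 log2) of the reported value, and of 1774 values of single genes 1681 kept direction and call. For poly(I:C) in WT, 1 member was called with the replicate block (0 to 1 leaving out a library with the block) and 1 in libraries ending in d_2 alone. In FancgKO and in FancgKO_Mdm4Tg 1 was called in d_2 libraries alone. Within d_2 each genotype has 1 poly(I:C) library, assumed to vary like the other groups, and 3.96%, 2.08%, 3.51% and 2.23% of all genes were called there in WT, FancgKO, FancgKO_Mdm4Tg and Mdm4Tg. In Mdm4Tg, 14 were called with the replicate block (4.85% of all genes), whose numbers were not taken as pairing there, 8 in d_2 libraries alone, and 1 with the title ending as a term, with edgeR, or with only the groups compared; DESeq2 called 2. For the response averaged over genotypes, 16 became 10 with no filter, 31 with the title ending as a term, 0 in d libraries, 39 in d_2 libraries, 9 with Xist as a term and 3 to 25 leaving out 1 library; the replicate block gave 19 higher and 2 lower (30.9% of all genes called). The block changed no other call in the comparisons taken as paired. Member counts in this section without a share of all genes beside them are a description only. In d libraries leaving out 1 library gave 0 to 1 (1 without FancgKO PBS library 6). The difference between the responses had 5 members called with pseudocount 5, 7 with edgeR and 0 to 22 leaving out 1 library. With Xist as a term, the median of Mdm4Tg against WT with poly(I:C) was 0.48, and that of the response in Mdm4Tg minus WT was 1.18.

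Reversed single genes were Hist1h4j (poly(I:C) in FancgKO, d libraries alone, -0.11), Hist1h3h (FancgKO against WT, PBS, Xist as a term, -0.050), Hist3h2bb-ps (the same, without FancgKO library 2, 0.12, in a range of -1.25 to 0.12 leaving out 1 library), Hist2h2ab (FancgKO against WT, poly(I:C), d_2 alone, 0.088), Hist2h2be (Mdm4Tg against WT, poly(I:C), d_2 alone, 0.021), and Hist1h4m (FancgKO_Mdm4Tg against FancgKO, poly(I:C), d_2 alone, 0.38, and without FancgKO_Mdm4Tg library 7, 0.25, in a range of -1.32 to 0.25 leaving out 1 library). Others were Hist2h3b (that comparison, Xist as a term, 0.20), Hist2h2ab (FancgKO_Mdm4Tg against WT, PBS, replicate block without FancgKO_Mdm4Tg library 2, 0.061) and Hist2h2be (transgene difference on FancgKO minus WT, d alone, -0.089). The causes were not tested. Shallow libraries (from 807686 reads) and shared sequence between members limit single low genes.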
